A study of Mus musculus with 3 samples.

Results

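The cells described here are a small stromal population of the fetal mouse ovary that carried transcripts of both lumican (Lum) and decorin (Dcn). The cells were chosen by their own UMI counts, so that a member held at least 1 unique molecular identifier (UMI, 1 counted RNA molecule) of Lum and at least 1 of Dcn, fewer than 5 UMIs of the germ cell gene Dazl, no UMI of Foxd1 or Dkk2, and UMIs of fewer than 2 of the 5 cell-cycle genes Top2a, Mki67, Ube2c, Ccnb1 and Cdc20. This rule found 479 cells among 28971 kept cells, with 188 of 9711 in lot 26, 106 of 8553 in lot 29 and 185 of 10707 in lot 30. Their share was 1.94% of the lot (exact Clopper-Pearson 95% interval 1.67 to 2.23%) in lot 26, 1.24% (1.02 to 1.50%) in lot 29 and 1.73% (1.49 to 1.99%) in lot 30, which gives 1.63% ± 0.358 (SD, n = 3 lots). The interval of lot 29 lay below that of lot 26 and barely reached that of lot 30, and these intervals cover counting error only.

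The study froze somatic cells of E12.5 ovaries (fetal ovarian somatic cells, FOSCs) in lots and thawed them later to rebuild ovaries with germ cells made in culture. Each of the 3 lots pooled the ovaries of embryos from 10 time-mated CD1 mice with no transgene and no treatment, and magnetic beads against SSEA1 and CD31 had removed most germ cells and endothelial cells before freezing. Thawed cells were profiled by 3′ single-cell RNA sequencing on the 10x Genomics Chromium system, and the count tables hold 126680758, 87494974 and 141920060 UMIs for lots 26, 29 and 30. The lots are 3 samples of 1 condition, so the lot was the replicate throughout and no groups of lots were compared.

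Lumican and decorin are small leucine-rich proteoglycans, secreted proteins whose curved leucine-rich core binds collagen fibrils and sets their spacing and thickness, and decorin also binds growth factors of the TGF-beta family. Fibroblasts are the main source of both proteins in most tissues, together with fibrillar collagens, the hyaluronan-binding proteoglycan versican (Vcan) and the enzymes that cross-link collagen. In the fetal ovary such stromal cells lie between and around the cords of germ cells and pre-granulosa cells, and part of this stroma comes from the neighbouring mesonephros.

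On GRCm38 (GENCODE annotation), Lum (ENSMUSG00000036446) lies on the plus strand at chr10:97565128-97572703 with 3 exons, and Dcn (ENSMUSG00000019929) lies next to it on the plus strand at chr10:97479609-97518143 with 9 merged exons. Vcan (ENSMUSG00000021614) lies on the minus strand at chr13:89655312-89742509 with 16 merged exons. None of these genes overlapped another annotated gene. Of the 12 genes that led the comparison with all other cells, 6 had an entry in the RefSeq promoter table (GRCm38.p6). The 250 bases upstream of the RefSeq start site are shown for Vcan, the marker of this population that the rule did not read, and for Svep1 and Inhba, which were among the leading higher genes and whose windows held a TATA box. Each is written 5′ to 3′ on the strand of the gene, with any TATAAA match on either strand in capitals.

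Vcan, chr13:89742513-89742762, minus strand: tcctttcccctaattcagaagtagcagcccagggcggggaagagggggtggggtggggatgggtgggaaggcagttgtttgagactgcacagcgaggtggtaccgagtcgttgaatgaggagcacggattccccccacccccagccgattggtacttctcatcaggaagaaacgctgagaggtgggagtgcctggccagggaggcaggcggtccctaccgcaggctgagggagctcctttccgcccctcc

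Svep1, chr4:58206597-58206846, minus strand: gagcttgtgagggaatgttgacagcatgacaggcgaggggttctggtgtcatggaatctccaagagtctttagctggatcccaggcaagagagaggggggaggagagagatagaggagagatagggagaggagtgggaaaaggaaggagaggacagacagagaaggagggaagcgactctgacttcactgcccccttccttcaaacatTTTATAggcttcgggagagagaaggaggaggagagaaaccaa

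Inhba, chr13:16011601-16011850, plus strand: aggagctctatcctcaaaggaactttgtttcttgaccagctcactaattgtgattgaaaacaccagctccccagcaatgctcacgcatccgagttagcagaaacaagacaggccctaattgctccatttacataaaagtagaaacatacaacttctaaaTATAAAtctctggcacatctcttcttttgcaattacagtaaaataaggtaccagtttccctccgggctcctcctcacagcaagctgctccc

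The motifs searched on both strands of these windows were the E-box CAGCTG, the nuclear receptor half-site AGGTCA and the TATA box TATAAA, whose matches can share bases only at their ends. The Svep1 window held TATAAA on the reverse strand at position -42 from the start site, and the Inhba window held it on the forward strand at -91. No match of the other motifs was found in the 3 windows, and the Vcan window held none of the 3 motifs. Over 32536 promoter windows of this length in the RefSeq table, CAGCTG occurred in 13.05%, AGGTCA in 14.04% and TATAAA in 12.31%, so a match is common and is given as a description of the letters only.

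The label of stromal fibroblasts was checked against marker lists for 12 cell types. The 12 stromal fibroblast markers summed to 5838, 6254 and 5593 CPM (UMIs of a gene divided by all UMIs of the summed cells and scaled to 1000000) in lots 26, 29 and 30 of the members, against 1108, 1000 and 986 CPM in all other kept cells. These sums include Lum and Dcn, which chose the cells, so the rule fixed them in part. All 10 stromal markers outside the rule were called higher in the members, as were 9.73% of all genes tested. The marker lists were chosen with earlier results of these data known, so these calls are no independent check of the label. The stromal profile was not particular to the members. The same 12 markers summed to 7096, 6435 and 6808 CPM in Foxd1 and Dkk2 cells, above the members in every lot. They summed to 2105 to 2772 CPM in cycling Tcf21 and Nr2f2 cells and in those lacking Lum or Dcn. Markers of pre-granulosa cells stood at lower summed levels in the members than in all other cells (1136 to 1344 against 1799 to 2193 CPM). So did surface epithelium (124 to 248 against 372 to 423 CPM) and red blood cell markers (75.0 to 160 against 1322 to 3880 CPM). Germ cell markers were lower too (18.7 to 34.1 against 251 to 484 CPM). The rule removed cells with many Dazl UMIs, so it fixed the germ cell difference in part. That difference is therefore no independent check of the label, and neither is the level of the germ cell gene Pou5f1 given below. The pre-granulosa sum of the members lay above those of Foxd1 and Dkk2 cells (468 to 995 CPM) and of cycling Tcf21 and Nr2f2 cells (507 to 803 CPM), and overlapped that of Tcf21 and Nr2f2 cells lacking Lum or Dcn (716 to 1167 CPM). This sum was uneven among the members. In a cluster of 69 members (cluster 4, described below) Fst stood at 447 CPM and Irx3 at 445 CPM. The other members stood at 27.9 and 48.5 CPM of these genes. Wnt4 was more even, at 570 and 406 CPM. The part of this cluster in the sum was not tested. Endothelial markers overlapped between members (85.9 to 110 CPM) and all other cells (89.2 to 145 CPM), and their part in the results was not tested. The 8 pericyte and smooth muscle markers summed to 112 to 115 CPM in the members against 53.7 to 62.9 CPM, with 4 of the 8 called higher, among them the muscle filament gene Des. Myeloid markers were near 0 (0 to 5.81 CPM), with Fcer1g and Ptprc at 0 UMIs in all members, and the defining markers Pou5f1, Msln, Hba-a2, Cyp21a1 and Foxd3 were also at 0. All other cells together held only 87 UMIs of Msln, 36 of Hba-a2 and 44 of Foxd3, so a 0 of these genes could not show a difference at this depth.

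Not every chosen cell carried the full stromal profile. Leiden clustering of the members alone gave 6 clusters, of which 2 went against the label. The first (cluster 4, 69 cells) was led by Wfdc10, Fst, Irx3 and Kctd14, with Col1a1 at 297 CPM against 886 CPM in the other members, and Scrublet called 56.5% of its cells doublets, that is, 2 cells captured in 1 droplet. The second (cluster 6, 40 cells) was led by Tm4sf5, Upk3b, Krt7 and Krt19, genes of surface epithelium, with Col1a1 at 84.5 CPM against 852 CPM, and 10.0% of its cells were called doublets. Its median cell held 13666.5 UMIs and that of cluster 4 held 14716, while the medians of the other 4 clusters ran from 6029 to 7050.5. Both clusters stay among the 479 cells because the rule chose them, and their part in the results below was not tested. With all doublet calls removed, 207 of the 217 genes named against all other cells and 104 of the 112 named against Foxd1 and Dkk2 cells kept their side of the threshold. That removal does not test these clusters, since the calls covered only 56.5% of cluster 4 and 10.0% of cluster 6. Doublets made up 9.57%, 11.3% and 7.03% of the members in lots 26, 29 and 30, against 5.75%, 3.97% and 5.91% of all other cells, and the part of called doublets in the results below was tested only by that removal.

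Members held fewer UMIs than other cells, with medians of 7195.5, 5885 and 7633 against 11179, 8983 and 11652.5 in lots 26, 29 and 30. The sums tested therefore rested on 1720479, 733332 and 1761692 member UMIs, and lot 29 was the thinnest. After thinning every cell to 4000 UMIs the share of cells that met the rule averaged 1.46% over lots. Between lots, 19 to 30 kept barcodes were shared, and no member of any lot shared its barcode with a member of another. Cells with a Y-linked UMI made up 3.72%, 13.2% and 1.08% of the members and 3.66%, 10.7% and 0.865% of all other cells, so lot 29 stood apart in both. Such UMIs mark possible cells of male embryos in these pools, and the paper reported a few contaminating Sertoli cells in every lot. How many members came from male embryos was not tested. None of the 132 barcodes outside the cell filter met the rule.

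The genes that chose the cells are given as a description without a test. Lum stood at 321, 356 and 364 CPM in the members of lots 26, 29 and 30, against 14.5, 9.90 and 13.5 CPM in all other kept cells. Dcn stood at 996, 1252 and 956 CPM, against 114, 109 and 117 CPM. Foxd1 and Dkk2 cells, the nearest to the members in Dcn, stood at 230, 135 and 286 CPM of Lum and 1073, 899 and 1221 CPM of Dcn. Both genes were held by 60.0%, 45.1% and 71.8% of those cells, so Lum and Dcn were not particular to the members. Cycling Tcf21 and Nr2f2 cells stood lower, at 43.9, 22.8 and 35.5 CPM of Lum and 264, 179 and 213 CPM of Dcn. The median member carried only 2 Lum UMIs in each lot, with maxima of 14, 13 and 22, so for many members the choice rested on very few molecules. Dcn was read from more molecules, with medians of 8, 7 and 7 UMIs and maxima of 46, 34 and 42. A germ cell, which is not known as a source of lumican, held a Lum UMI in 6.06%, 2.74% and 4.72% of the cells with at least 5 Dazl UMIs at median depths of 22388, 18256 and 24068 UMIs, and in 0.846%, 0.305% and 1.05% after thinning to 4000 UMIs. A Dcn UMI was held by 18.8%, 8.23% and 16.3% of these germ cells, and both genes by 2.54%, 0.610% and 2.10%. In lots 26 and 30 this exceeded the share of members among all kept cells, which the other parts of the rule also limit. By the same measure, both genes were held by 4.20%, 2.88% and 3.94% of all other kept cells. After thinning, both genes were held by 0.282%, 0% (exact upper limit 1.12%) and 0.263% of the germ cells, against 2.51%, 1.73% and 2.34% of all other kept cells. The thinned member share of 1.46% is again limited by the other parts of the rule.

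**Figure D1:**
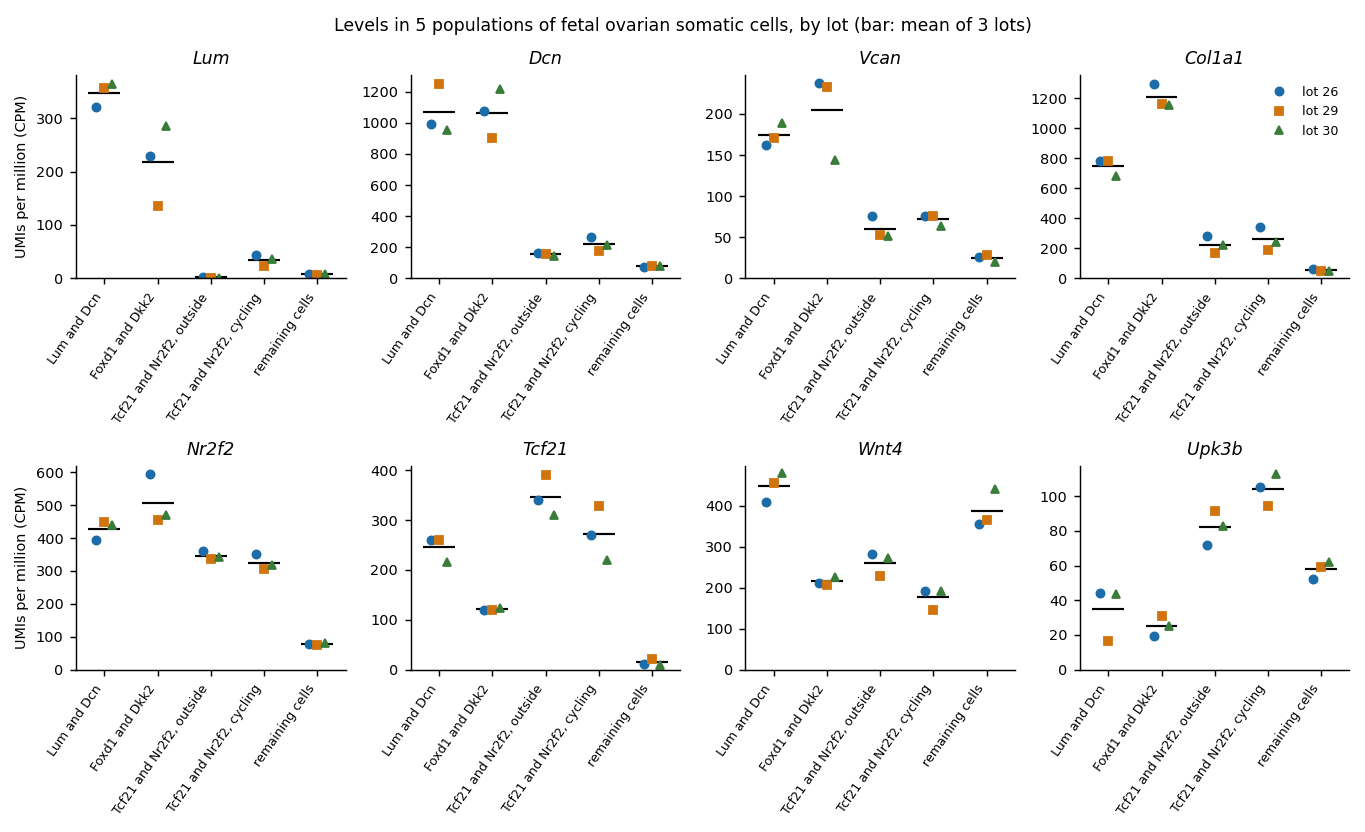
Level in CPM (vertical axes, each starting at 0) of 8 genes in the Lum and Dcn cells and in 4 other disjoint populations of kept cells (horizontal axis). Points are the 3 lots and bars their mean. Lum and Dcn chose the first population, and Vcan and Col1a1 sit in the members (163 to 189 and 679 to 780 CPM) above the remaining cells in every lot.

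Vcan, which the rule did not read, stood at 163, 170.5 and 189 CPM in the members and at 38.5, 40.6 and 31.0 CPM in all other cells, with no overlap between the 2 sets of lots. The log2 fold change was 2.21 ± 0.13 (SE) with an adjusted p of 5.12e-07 (edgeR quasi-likelihood test, Benjamini-Hochberg adjustment, n = 3 lots, as for every adjusted p below). Across populations, Vcan was also high in the cells with Foxd1 and Dkk2 UMIs (237, 232 and 144 CPM), whose lots overlapped those of the members. It was lower in cells with Tcf21 and Nr2f2 UMIs, at 75.6, 52.9 and 51.4 CPM in those outside the cell cycle and 75.8, 76.2 and 63.6 CPM in the cycling ones, which overlapped each other, and lowest in the remaining cells at 25.97, 28.9 and 20.4 CPM. Col1a1, the alpha 1 chain of type I collagen, had the order Foxd1 and Dkk2 cells (1294, 1163 and 1156 CPM), members (779, 780.0 and 679 CPM), both kinds of Tcf21 and Nr2f2 cells (169 to 342 CPM) and remaining cells (59.6, 48.8 and 49.2 CPM).

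Against all other kept cells, a mixture of every other cell type in the lots, the members had 1434 genes called higher and 1483 called lower of 14734 tested outside the rule, at an adjusted p under 0.05. Those counts are 9.73% and 10.1% of the genes tested, which is the background for each list below, and the median log2 fold change of all these genes was -0.06. The lots pair the sums (all sums of a lot come from 1 pool of cells), and a fit with the lot as a block called 2096 higher and 2519 lower. The reason for these larger counts was not tested. Without lot 26 the counts were 871 and 805, and without lot 29 the count of lower genes was 924. When the rule read a random 50% of each cell's UMIs and the test used the remainder, 982 of the 1434 higher genes (68.5%) and 1006 of the 1483 lower genes (67.8%) were called again in the same direction.

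The leading higher genes included ligands, matrix proteins, receptors, enzymes and a homeobox factor. Gdf10, a ligand of the BMP family, stood at 30.2, 20.5 and 30.1 CPM in the members against 3.29, 2.47 and 2.49 CPM in all other cells (log2 fold change 3.30 ± 0.22, adjusted p = 1.25e-06). Svep1, a large adhesion protein of the matrix whose promoter is printed above, stood at 63.4, 35.5 and 63.0 CPM against 7.05, 4.52 and 6.09 CPM (3.22 ± 0.22, adjusted p = 1.32e-06). In both genes all lots of the members lay above all lots of the other cells, with lot 29 the lowest member lot for both. Inhba, the subunit of activin A, stood at 40.7, 42.3 and 61.9 CPM against 6.76, 6.46 and 4.65 CPM (3.01 ± 0.21, adjusted p = 1.96e-06). Has2, which makes the hyaluronan chains that versican binds, stood at 22.7, 31.4 and 30.7 CPM against 2.81, 3.60 and 2.79 CPM (3.14 ± 0.22, adjusted p = 1.99e-06). Fap, a serine protease named for activated fibroblasts, stood at 25.6, 31.4 and 31.2 CPM against 3.37, 3.11 and 3.23 CPM (3.13 ± 0.18, adjusted p = 5.12e-07). These 3 genes too had no overlap between members and other cells in any lot.

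The remaining leading genes included receptors, a cytokine and a neuropeptide precursor. Agtr2, the type 2 receptor of angiotensin II, stood at 41.8, 43.6 and 49.4 CPM against 6.84, 6.64 and 3.64 CPM (2.95 ± 0.25, adjusted p = 9.5e-06). Further ones were Ntrk2, the receptor of brain-derived neurotrophic factor (3.30 ± 0.24), the homeobox gene Alx1 (3.11 ± 0.31), the alarmin cytokine Il33 (3.05 ± 0.18) and the enkephalin precursor Penk (2.98 ± 0.31), which were called higher with member levels of 12.8 to 40.9 CPM. All 12 leading genes had no overlap between the lots of the members and those of the other cells.

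**Figure D2:**
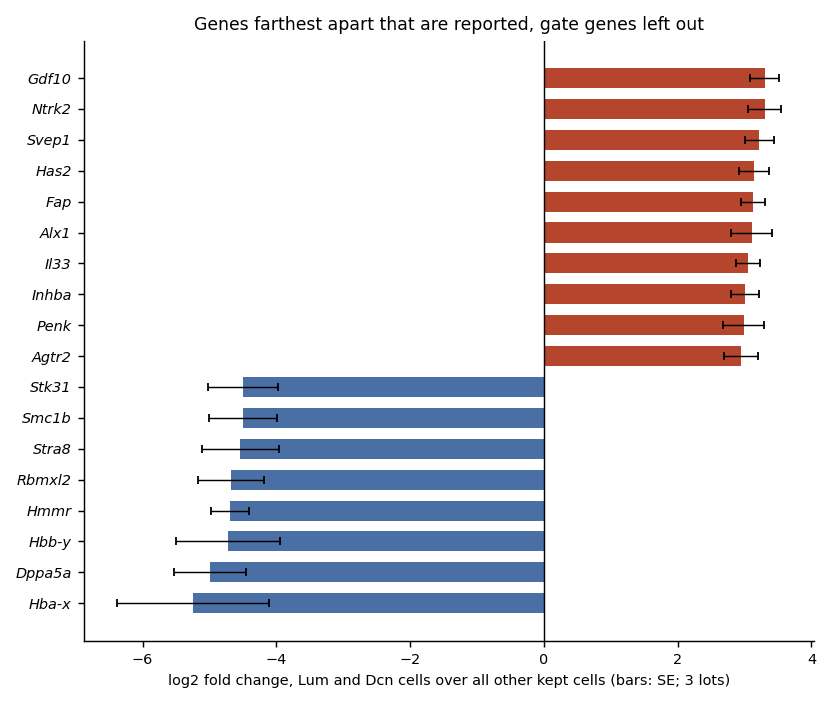
Log2 fold change (horizontal axis) of the Lum and Dcn cells over all other kept cells for 10 of the 12 leading higher and for the 8 leading lower genes (vertical axis), with the genes of the rule left out. Bars start at 0 and their whiskers are the SE over 3 lots. The higher genes run from 2.95 (Agtr2) to 3.30 (Gdf10), and Hba-x has the lowest value and the widest error (-5.24 ± 1.13).

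Genes lower in the members were led by markers of blood, germ line and division. The embryonic globins Hba-x (2.91, 12.3 and 3.41 CPM in the members against 63.2, 407 and 53.0 CPM) and Hbb-y (22.1, 73.6 and 31.2 CPM against 454, 2113 and 271 CPM) fell by 5.24 ± 1.13 and 4.72 ± 0.78 on the log2 scale, and lot 29 was the highest lot on both sides. The germ line genes Dppa5a (-4.99 ± 0.54), Rbmxl2 (-4.67 ± 0.49), Stra8 (-4.54 ± 0.58), Smc1b (-4.50 ± 0.51) and Stk31 (-4.50 ± 0.53) rested on 4 to 13 member UMIs each. The mitotic gene Hmmr (-4.69 ± 0.28) rested on 9. The rule itself removed cells with many Dazl UMIs or with several cell-cycle transcripts, so the differences of the germ line and mitotic genes are not independent of it. When the other cells were limited to those outside the cell cycle, the calls of these 6 genes were lost, with log2 fold changes of -0.47 for Dppa5a, -0.51 for Rbmxl2, -0.76 for Stra8, -0.35 for Smc1b, -0.67 for Stk31 and 0.19 for Hmmr. The globins, which the rule did not read, stayed lower there, at -5.88 for Hba-x and -5.35 for Hbb-y.

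Genes of the extracellular matrix were higher in most of their lists. Of the 20 collagens of the fibrillar and associated group that were tested, 14 were called higher and 1, Col18a1, lower, with a median log2 fold change of 1.76. Type I collagen was read at 779, 780.0 and 679 CPM for Col1a1 against 126, 92.7 and 104 CPM in all other cells (2.76 ± 0.13, adjusted p = 1.11e-07) and at 1015, 1046 and 952 CPM for Col1a2 against 179, 159 and 162 CPM (2.56 ± 0.10, adjusted p = 5.99e-08). Col3a1, the type III chain found in the same fibrils, stood at 1258, 1241 and 1181 CPM against 258, 203 and 214 CPM (2.42 ± 0.11, adjusted p = 1.1e-07). Each of these chains varied little between member lots and exceeded the other cells in every lot. Col14a1, which coats collagen fibrils as decorin does, was more variable at 84.9, 146 and 103 CPM against 14.9, 19.1 and 9.36 CPM (2.85 ± 0.27, adjusted p = 1.75e-05). Col6a3, of the beaded filaments of type VI collagen, stood at 101, 60.0 and 84.0 CPM against 17.7, 11.3 and 15.4 CPM (2.48 ± 0.19, adjusted p = 3.03e-06).

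Other small leucine-rich proteoglycans, the family of Lum and Dcn, were higher in part. Of 11 tested, 5 were called higher (Ogn, Prelp, Tsku, Bgn and Aspn) and none lower, with a median log2 fold change of 1.44. Biglycan (Bgn), the nearest relative of decorin, stood at 191, 210.0 and 214 CPM in the members against 59.3, 45.8 and 57.3 CPM (1.88 ± 0.11, adjusted p = 5.63e-07). Osteoglycin (Ogn) stood at 29.1, 27.3 and 15.9 CPM against 3.88, 4.09 and 2.96 CPM (2.66 ± 0.27, adjusted p = 2.71e-05). Prelp passed the test (2.05 ± 0.41, adjusted p = 0.00419) on only 23 member UMIs. The other 6 did not pass it.

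Enzymes that fold, modify and cross-link collagen were higher in 16 of 23 tested members of their list and lower in 1, with a median log2 fold change of 0.75. Lox, the copper enzyme that starts cross-linking, stood at 13.4, 17.7 and 14.2 CPM against 3.65, 2.34 and 2.62 CPM (2.32 ± 0.28, adjusted p = 0.000108). The collagen lysyl hydroxylase Plod2 stood at 93.0, 99.5 and 89.1 CPM against 34.0, 40.1 and 32.5 CPM (1.35 ± 0.13, adjusted p = 1.48e-05). Serpinh1, the collagen chaperone of the endoplasmic reticulum, differed less, at 633, 695 and 734 CPM against 369.6, 411 and 439.9 CPM (0.72 ± 0.11, adjusted p = 0.000671). The member that was lower, Pcolce2, held 0 UMIs in the members, and against a floor of 3 UMIs over all members its level in the other cells was at least 2.15-fold higher. That call was lost when any of the lots was left out. Elastic fibre and microfibril genes were higher in 10 of 17 tested and lower in none (median 1.22), led by Mfap4 at 269.7, 279.5 and 249.8 CPM against 49.3, 46.6 and 40.4 CPM (2.51 ± 0.11, adjusted p = 1.1e-07). Mfap4 was not particular to the members, since Foxd1 and Dkk2 cells stood at 316, 321 and 246 CPM of it. The members were not called different from those cells in Mfap4 (log2 fold change -0.09 ± 0.15). An exon of Mfap4 overlaps Mapk7 on the opposite strand by 89 bases. The strand setting of the counting is not given in the sources used here. Fbln5, an elastin-binding fibulin, followed at 38.4, 42.3 and 31.2 CPM against 7.98, 7.09 and 7.73 CPM (2.23 ± 0.16, adjusted p = 2.47e-06).

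Of 25 matricellular and adhesive glycoproteins, 16 were called higher and 1, Npnt, lower (median 1.31). Postn, periostin, which binds collagen and integrins, stood at 91.3, 121 and 121 CPM against 17.4, 16.6 and 17.7 CPM (2.64 ± 0.12, adjusted p = 1.15e-07). Ecm1 stood at 153, 105 and 141 CPM against 21.2, 19.7 and 18.7 CPM (2.73 ± 0.13, adjusted p = 1.17e-07). Both were thus higher than in all other cells in every lot by more than the spread between lots. Postn was not particular to the members. With cells thinned to equal depth, 65.4%, 55.1% and 61.2% of Foxd1 and Dkk2 cells in lots 26, 29 and 30 held a Postn UMI. Among the thinned members the shares were lower, at 23.5%, 28.9% and 31.5%. Matrix proteases and their inhibitors were higher in 13 of 21 and lower in 2, Mmp15 and Timp1 (median 0.76), with the gelatinase Mmp2 at 187, 170.5 and 178 CPM against 63.5, 54.9 and 55.2 CPM (1.59 ± 0.10, adjusted p = 7.16e-07). Basement membrane genes, made by epithelia as well, were higher in 8 of 15 and lower in 1, Lama5 (median 0.56), whose call was lost without lot 26.

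**Figure D3:**
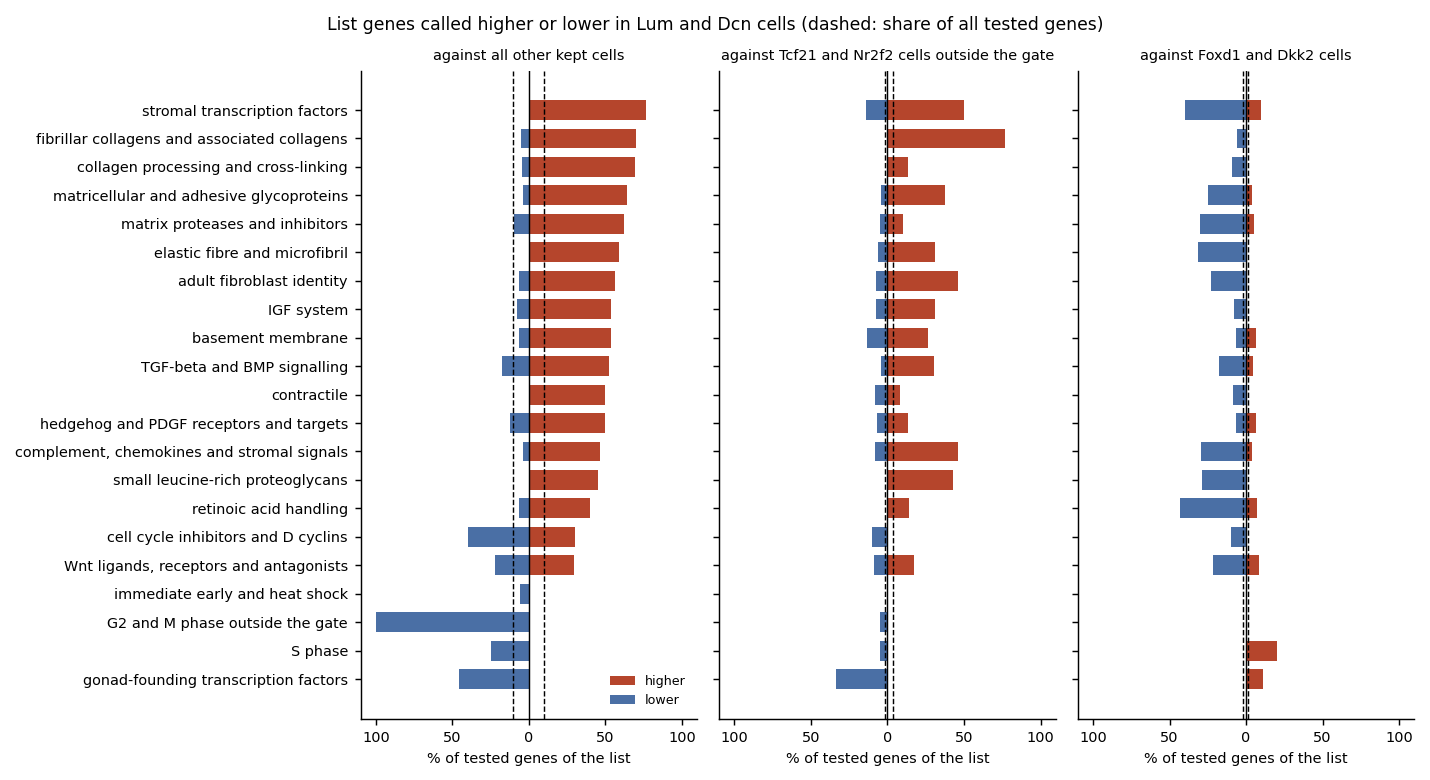
Percent of the tested genes of each list (vertical axis) called higher (right of 0) or lower (left of 0) in the Lum and Dcn cells, in panels for the comparison with all other kept cells, with Tcf21 and Nr2f2 cells that lacked Lum or Dcn, and with Foxd1 and Dkk2 cells. Dashed lines give the share of all tested genes called in each direction. Fibrillar collagens were higher in 14 of 20 against all other cells, in 13 of 17 in the middle panel and in 0 of 17 against the Foxd1 and Dkk2 cells.

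Transcription factors of mesenchyme were called higher in 23 of 30 tested, and none was lower (median log2 fold change 1.40). The nuclear receptor Nr2f2 (COUP-TFII), which marks the interstitium of fetal gonads, stood at 393, 450.0 and 438 CPM in the members against 145, 138 and 144 CPM (1.55 ± 0.10, adjusted p = 8.24e-07). Tcf21, a helix-loop-helix factor of gonadal and visceral mesenchyme, stood at 259.8, 259 and 216 CPM against 77.8, 104 and 69.9 CPM (1.50 ± 0.16, adjusted p = 4.8e-05). Neither gene was part of the rule, and for both the lots of the members and of the other cells did not overlap. The largest differences in this list were those of Foxp2 at 36.0, 51.8 and 48.8 CPM against 5.17, 7.02 and 5.34 CPM (2.90 ± 0.20, adjusted p = 1.96e-06), Twist2 (2.74 ± 0.16) and Osr1 (2.52 ± 0.21). Factors that found the gonad went the other way, with 0 of 11 higher and 5 lower (Emx2, Gata4, Nr0b1, Lhx9 and Nr5a1, median -0.86). Emx2 stood at 95.9, 70.9 and 99.3 CPM against 175, 182 and 189 CPM (-1.04 ± 0.12, adjusted p = 8.74e-05), while Wt1, a further member, stood at 246, 184 and 252 CPM against 239.9, 198 and 289.7 CPM and did not pass the test (adjusted p = 0.641). Within the Lum and Dcn cells, Emx2 stood at 168 and 211 CPM in clusters 4 and 6 and at 16.6 to 59.6 CPM in the other clusters.

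Receptors and targets of hedgehog and platelet-derived growth factor (PDGF) signalling were higher in 8 of 16 and lower in 2, which were the ligands Pdgfa and Pdgfb. Pdgfrb stood at 103, 99.5 and 99.9 CPM against 25.7, 18.4 and 19.6 CPM (2.21 ± 0.13, adjusted p = 5.63e-07), and Pdgfra at 189, 199 and 146 CPM against 63.6, 62.4 and 53.7 CPM (1.52 ± 0.13, adjusted p = 9.54e-06). Gli1, the hedgehog target, was called higher on 49 member UMIs (2.49 ± 0.36, adjusted p = 0.000455), and its exons overlap Arhgap9 on the opposite strand. Both PDGF receptors were thus higher in the members in every lot. Pdgfb held 0 member UMIs, its level in the other cells was at least 2.00-fold higher against a floor of 3 UMIs over all members, and its call was lost when any of the lots was left out and when doublets were removed.

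Genes of Wnt signalling split, with 8 of 27 higher and 6 lower (median 0.36). Sfrp1, a secreted Wnt antagonist, stood at 403, 476 and 404 CPM against 90.1, 101 and 95.1 CPM (2.12 ± 0.11, adjusted p = 3.36e-07). Wnt5a, the ligand of the non-canonical pathway, stood at 194, 189.5 and 204 CPM against 76.3, 79.1 and 79.6 CPM (1.29 ± 0.09, adjusted p = 2.24e-06). Wnt6 was lower at 201, 136 and 191 CPM against 353, 357 and 382 CPM (-1.06 ± 0.13, adjusted p = 0.000137), as were Rspo1 and Lgr5. Within the members, Wnt6 stood at 464 and 345 CPM in clusters 4 and 6 and at 16.3 to 35.7 CPM in the other clusters. Wnt4, known for its part in ovarian determination and listed among the pre-granulosa markers, stood at 409.8, 454 and 480.2 CPM against 323, 317 and 384 CPM (0.36 ± 0.11, adjusted p = 0.0413). The call was lost when any of the lots was left out and when doublets were removed (adjusted p = 0.0937), and the difference became -0.18 on the log2 scale when the other cells were limited to those outside the cell cycle.

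Growth factor and guidance genes held more calls above than below. TGF-beta and BMP genes were higher in 12 of 23 and lower in 4, and the activin antagonist Fst, a pre-granulosa marker, was among the lower ones at 120.3, 138 and 144 CPM against 332, 343 and 380.2 CPM (-1.43 ± 0.11, adjusted p = 4.13e-06). Within the members, Fst stood at 447 CPM in cluster 4 and at 27.9 CPM in the other members. In the insulin-like growth factor (IGF) list 7 of 13 were higher and 1 lower. Igfbp5 stood at 940.4, 836 and 1045 CPM against 316, 242 and 319.6 CPM (1.65 ± 0.12, adjusted p = 2.64e-06), and the lower one, Igfbp2, stood at 292, 132 and 202 CPM against 364, 339 and 365 CPM (-0.77 ± 0.20, adjusted p = 0.0168, lost without lot 29). Of 28 complement, chemokine and stromal signal genes, 13 were higher and 1, Kitl, lower. The chemokine Cxcl12 stood at 184, 207 and 239 CPM against 30.9, 49.5 and 30.0 CPM (2.47 ± 0.20, adjusted p = 6.43e-06), the axon guidance ligand Slit2 at 177, 139 and 186 CPM against 31.0, 24.7 and 33.9 CPM (2.47 ± 0.14, adjusted p = 3.46e-07), and the heparin-binding growth factor Ptn at 1504, 1853 and 1474 CPM against 295, 371 and 289 CPM (2.30 ± 0.14, adjusted p = 8.21e-07).

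Adult fibroblast genes were higher in 9 of 16 tested and lower in 1, Pdpn, and contractile genes were higher in 7 of 14 and lower in none. Dlk1, a Notch-like membrane protein, stood at 613, 424 and 559.7 CPM against 175, 177 and 153 CPM (1.63 ± 0.13, adjusted p = 6.23e-06). The smooth muscle actin gene Acta2 stood at 142, 243 and 131 CPM against 56.9, 44.5 and 52.4 CPM (1.66 ± 0.19, adjusted p = 9.16e-05), with lot 29 well above the other two. Retinoic acid genes were higher in 6 of 15 and lower in 1, with the retinaldehyde reductase gene Dhrs3 at 59.3, 62.7 and 54.5 CPM against 40.5, 38.0 and 38.6 CPM (0.54 ± 0.11, adjusted p = 0.00374, lost without lot 26). Of 18 immediate early and heat shock genes, 0 were higher and 1, Hsp90aa1, was lower, and 0 of 4 Y-linked genes were called in either direction.

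Cell-cycle genes followed the rule. All 20 G2 and M phase genes tested were called lower (median -3.10), a difference that the rule made by removing cells with such transcripts and that is no result. Of 20 S phase genes, 0 were higher and 5 were lower (median -0.19). The rule did not read these genes, but it removed cells with several cell-cycle transcripts from the members alone. Their difference is therefore not independent of it. Among cell-cycle inhibitors and D cyclins, Cdkn1c stood at 1193, 1380 and 1424 CPM against 1853, 1926 and 2101 CPM (-0.59 ± 0.10, adjusted p = 0.00187), and Ccnd2 at 483, 455 and 490.4 CPM against 273, 233 and 282 CPM (0.82 ± 0.10, adjusted p = 0.000115).

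Cells with at least 1 UMI of both Foxd1 and Dkk2, a further mesenchyme, were chosen for comparison with otherwise like criteria and without regard to Lum or Dcn, and there were 55, 91 and 85 of them in lots 26, 29 and 30. Against it, 118 genes were called higher and 255 lower in the members of 12208 tested, or 0.967% and 2.09%. In the fit with the lot as a block, which pairs the sums, the counts were 440 and 464. Without lot 26, 29 or 30 in turn the higher count was 33, 70 and 48 and the lower count 106, 143 and 106. Few collagens passed the test, since of 17 fibrillar and associated ones 0 were higher and only Col1a2 was lower in the members (-0.47 ± 0.11, adjusted p = 0.0293), a call lost when any of the lots was left out. Vcan (-0.16 ± 0.19, adjusted p = 0.81), Nr2f2 (-0.19 ± 0.11, adjusted p = 0.478) and Col1a1 (-0.64 ± 0.18, adjusted p = 0.0739) did not pass the test, which does not show that they were equal. With the lot as a block Col1a1 passed it (log2 fold change -0.69, adjusted p = 3.4e-06), while Vcan (adjusted p = 0.725) and Nr2f2 (adjusted p = 0.127) did not, and for Col1a1 and Nr2f2 the members of every lot lay below all lots of the Foxd1 and Dkk2 cells. Summed myeloid markers were at 169 CPM in the Foxd1 and Dkk2 cells of lot 26 and 0 and 6.53 CPM in lots 29 and 30, and 10.9%, 2.20% and 22.4% of these cells were called doublets. The part of these cells in the differences was not tested for the myeloid markers, and with doublets removed the higher count was 188.

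Many stromal transcription factors differed between the 2 populations, with 3 of 30 higher and 12 lower in the members. Tcf21 stood at 259.8, 259 and 216 CPM against 119, 121 and 123 CPM (1.06 ± 0.17, adjusted p = 0.00143), a call that was lost without lot 26 (adjusted p = 0.096). Its level was higher in the members of every lot. The early B-cell factors went the other way, with Ebf1 at 34.3, 36.8 and 30.1 CPM against 146, 144 and 167 CPM (-2.16 ± 0.16, adjusted p = 1.08e-06). Ebf2 (-5.18 ± 0.60, adjusted p = 8.4e-05) rested on 4 member UMIs, and Ebf3 on 2 member UMIs against 59, a ratio of levels of 51.0 (95% counting interval 13.5 to 431). The limb and craniofacial mesenchyme factor Prrx1 was also lower, at 59.9, 53.2 and 44.8 CPM against 237, 259.6 and 197 CPM (-2.08 ± 0.16, adjusted p = 1.08e-06).

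Signalling genes also differed between the 2 populations. Ngfr, the low-affinity neurotrophin receptor, was higher in the members, at 34.3, 24.5 and 33.5 CPM against 8.91, 7.45 and 7.46 CPM (2.08 ± 0.36, adjusted p = 0.00254). The Ngfr call was lost without lot 26 and without lot 30. Other leading higher genes were Hapln3, a hyaluronan link protein (2.79 ± 0.47, lost without lot 30), Tceal6 (2.36 ± 0.34), Aim2, a DNA sensor (2.02 ± 0.36, lost without lot 26 or lot 29), the basement membrane gene Frem1 (1.98 ± 0.29) and the non-coding A230065H16Rik (1.95 ± 0.21). Wnt4 stood at 409.8, 454 and 480.2 CPM against 212, 207 and 226 CPM (1.11 ± 0.12, adjusted p = 4.41e-05), whereas the R-spondin Rspo3, a Wnt amplifier, stood at 40.7, 46.4 and 49.95 CPM against 234, 221 and 255 CPM (-2.33 ± 0.17, adjusted p = 1.08e-06). Wnt genes were thus higher in 2 and lower in 5 of 23 tested. Of 14 retinoic acid genes 1 was higher and 6 lower, with the retinoic acid-binding protein gene Crabp1 at 55.2, 102 and 85.7 CPM against 483, 883 and 505 CPM (-2.95 ± 0.26, adjusted p = 6.93e-06).

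Further genes of this comparison were matrix and metabolic ones. Efemp1, a fibulin, fell by 5.65 ± 0.39 on the log2 scale with 8 member UMIs, and the flavin monooxygenase Fmo2 by 5.74 ± 0.73 with 5. Elastic fibre genes were lower in 5 of 16 and higher in 0, and matricellular genes lower in 6 of 24 with Sparcl1 alone higher (300.5, 341 and 284 CPM against 114, 142 and 120.3 CPM, 1.34 ± 0.16, adjusted p = 1e-04). The small leucine-rich proteoglycan Ogn, higher in the members than in all other cells, was lower here, at 29.1, 27.3 and 15.9 CPM against 80.2, 91.9 and 109 CPM (-1.97 ± 0.26, adjusted p = 0.000249), and its relative Epyc held 3 member UMIs against 63 (ratio of levels 36.3, 95% counting interval 11.9 to 181). The metalloprotease inhibitor Timp3 was higher at 296, 299 and 378 CPM against 162, 127 and 182 CPM (1.10 ± 0.20, adjusted p = 0.00413), though it overlaps Syn3 on the opposite strand by 1733 bases and lost its call without lot 29. S phase genes were higher in 4 of 20 tested, Rrm1, Mcm2, Mcm5 and Mcm7, and Cdkn1c was lower at 1193, 1380 and 1424 CPM against 2651, 3321 and 2554 CPM (-1.04 ± 0.11, adjusted p = 5.63e-05). The Mcm7 call (0.57 ± 0.12, adjusted p = 0.00933) was lost without lot 26 and without lot 30.

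A broader stroma is given by cells with both Tcf21 and Nr2f2 UMIs that lacked Lum or Dcn and met the other parts of the rule, of which there were 876, 893 and 1085. Compared with them, the members had 420 genes called higher and 221 lower of 12206 tested, or 3.44% and 1.81%, and 836 and 851 with the lot as a block, which pairs the sums. Without lot 26, 29 or 30 in turn the higher count was 227, 271 and 158 and the lower count 56, 116 and 54. Collagens stood out again, with 13 of 17 higher and 0 lower, among them Col3a1 at 1258, 1241 and 1181 CPM against 481, 349 and 385 CPM (1.55 ± 0.13, adjusted p = 3.21e-06) and Col1a1 (1.69 ± 0.18, adjusted p = 2.59e-05). Vcan was higher as well, at 163, 170.5 and 189 CPM against 75.6, 52.9 and 51.4 CPM (1.49 ± 0.18, adjusted p = 8.12e-05). Enzymes of collagen processing were higher in 3 of 22 and lower in 0.

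The leading genes here were partly neuronal in name. Nefl stood at 22.7, 46.4 and 18.2 CPM in the members against 0.865, 2.81 and 1.61 CPM (3.88 ± 0.39, adjusted p = 1.44e-05), and Nefm at 66.3, 106 and 66.4 CPM against 5.41, 10.8 and 4.41 CPM (3.47 ± 0.37, adjusted p = 2.36e-05). Both encode neurofilament chains, and as their annotated exons overlap, reads of one may have been counted for the other. Fap stood at 25.6, 31.4 and 31.2 CPM against 2.59, 2.00 and 2.21 CPM (3.61 ± 0.21, adjusted p = 5.77e-08). Cxcl13, a B-cell chemokine, was high mainly in lot 29 (13.9, 57.3 and 9.65 CPM against 2.16, 1.87 and 2.46 CPM, 3.27 ± 0.63, adjusted p = 0.00446) and lost its call without lot 26 (adjusted p = 0.060). Lower genes were led by Myh8, a myosin heavy chain, at 5.23, 9.55 and 1.70 CPM against 58.6, 27.3 and 39.3 CPM (-3.24 ± 0.46, adjusted p = 0.000345), and Hand2, a helix-loop-helix factor, at 7.56, 2.73 and 10.8 CPM against 31.8, 33.9 and 34.1 CPM (-2.11 ± 0.31, adjusted p = 0.000495). Further lower genes were Sct (-2.53 ± 0.65), Rprml (-2.17 ± 0.35) and Kcnk3 (-1.83 ± 0.45), each of which lost its call without 1 or more of the lots (Sct without lot 26 or lot 29, Rprml without lot 26, Kcnk3 without lot 29 or lot 30). Stromal transcription factors were higher in 14 of 28 and lower in 4, among them Hand2, Tbx2 and Tcf4, and 4 of 7 surface epithelium markers were lower and 0 higher.

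Against the cycling cells with Tcf21 and Nr2f2 UMIs (1192, 1052 and 1281 cells) 893 genes were called higher and 988 lower of 12206, or 7.32% and 8.09%, and 1647 and 1703 with the lot as a block, which pairs the sums. Without lot 26, 29 or 30 in turn the higher count was 464, 540 and 333, and the lower count was 586 without lot 26 and 598 without lot 30. The lower genes were led by division genes such as Hmmr, Nusap1, Cdca2, Prc1 and Kif2c, which the definition of both populations fixes. Among the higher genes, 14 of 17 collagens and 7 of 13 IGF genes were called, as were Il33 at 37.8, 40.9 and 37.5 CPM against 8.12, 9.09 and 7.17 CPM (2.20 ± 0.15, adjusted p = 3.53e-08), Has2 (2.22 ± 0.21) and Agtr2 (2.25 ± 0.26). The 4 comparisons share the member cells, so a gene that recurs in them is not new evidence each time.

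Members differed among themselves with the number of Lum UMIs. There were 214 members with 1 Lum UMI, 158 with 2 to 4 and 107 with 5 or more. Over these tiers the pooled level of Dcn was 639, 1197 and 1689 CPM, that of Col1a1 490, 939 and 1036 CPM and that of Vcan 102, 236 and 263 CPM. Nr2f2 stood at 322, 503 and 543 CPM over the same tiers and Postn at 45.7, 161 and 184 CPM, whereas the surface epithelium marker Upk3b stood at 70.8, 11.03 and 4.61 CPM. In each lot by itself, Col1a1 in cells with 1 Lum UMI (498, 624 and 419 CPM) lay below that in cells with 5 or more (1279, 945 and 895 CPM). The 49 members with 1 UMI of each gene stood at 299 CPM of Col1a1. These values rest on tiers of a gene the rule read and are a description.

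**Figure D4:**
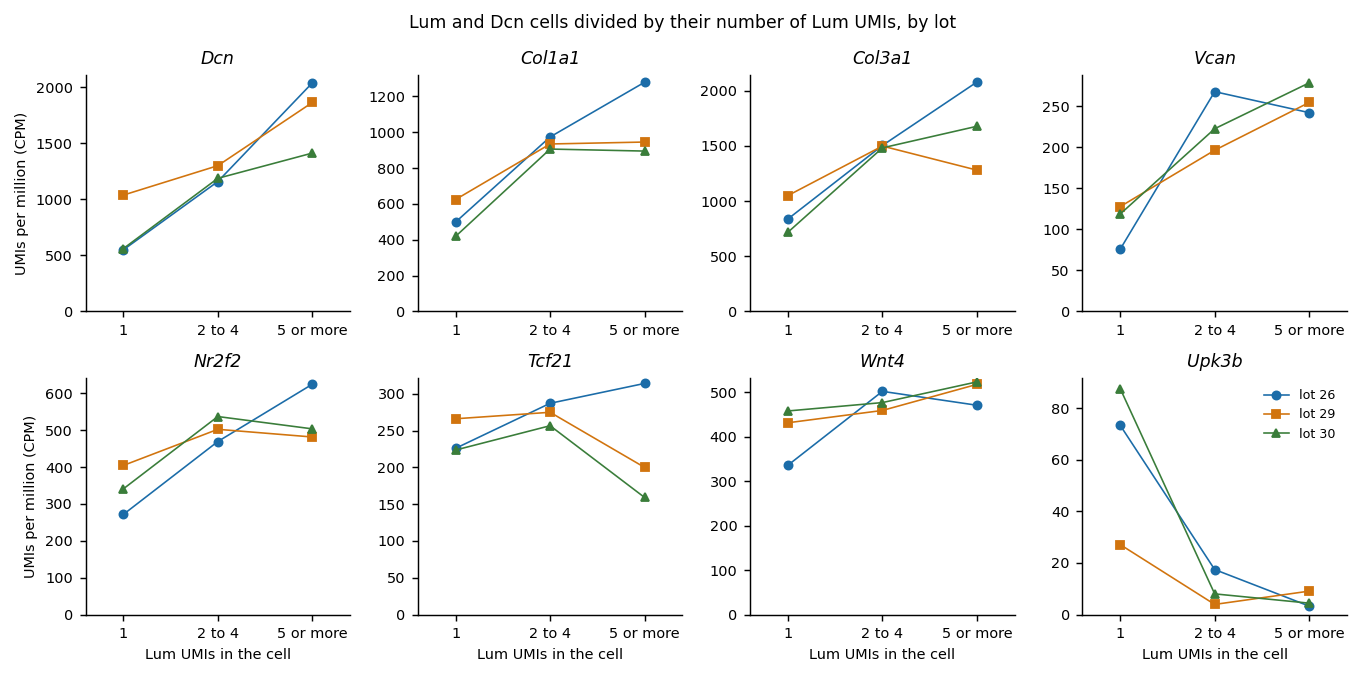
Level in CPM (vertical axes, each starting at 0) of 8 genes in members with 1, 2 to 4, and 5 or more Lum UMIs (horizontal axis), with a line for each lot. Vcan, Col1a1 and Nr2f2 are lowest in the cells with 1 Lum UMI in every lot, and Upk3b is highest there (73.4, 27.1 and 87.7 CPM in lots 26, 29 and 30).

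Cells just outside the rule show what its thresholds left out. With Dcn but no Lum UMI there were 3745 cells, with Col1a1 at 139 CPM, and the 745 of them with 5 or more Dcn UMIs stood at 245 CPM of Col1a1 and 225 CPM of Upk3b, against 738 and 39.1 CPM in all members. The 214 cells with Lum but no Dcn UMI stood at 91.7 CPM of Col1a1 and 520 CPM of Wnt4. A further 335 cells failed only for a Foxd1 or Dkk2 UMI and stood at 416 CPM of Lum, 1301 CPM of Dcn and 1150 CPM of Col1a1. The 426 cells that failed only for their cell-cycle genes included 93 with exactly 2 of the 5 genes, just past the threshold, with 728 CPM of Col1a1, and 188 members had 1 of the 5 and 647 CPM. No cell failed for Dazl alone, and the 19 members with 1 to 4 Dazl UMIs stood at 267 CPM of Col1a1.

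The 6 clusters of members differed in their leading genes, which are given as a description without a test. Cluster 1 (123 cells) was led by Cxcl12 (588 CPM against 124 in the other members), Foxp2 (121 against 26.5) and Ecm1 (362 against 88.9), with Col1a1 at 1459 CPM, although Cxcl12 stood slightly higher in cluster 5 (618 CPM). Cluster 2 (105 cells) was led by Inhba (208 against 20.3), Penk (93.3 against 10.4), Ntrk2 (97.8 against 15.5) and Agtr2 (149 against 25.9), with Vcan at 462 CPM and the hedgehog receptor Ptch1 at 97.8 CPM. Cluster 3 (102 cells) was led by Igfbp7 (203 against 33.1), Robo2 and Ngfr, with Tcf21 at 445 CPM, Acta2 at 297 CPM and Y-linked UMIs in 12.7% of its cells. Genes that were both higher in the whole population, such as Ecm1 and Inhba, thus led different clusters. Cluster 5 (40 cells) was led by the chemokine Ccl11 (65.4 against 1.28 CPM) and Fabp7, seen in only 15% and 25% of its cells, with Nefm at 402 CPM and Top2a at 141 CPM, although each of its cells passed the cell-cycle criterion. Every cluster held cells of all 3 lots, and cluster 6, the epithelial one, had 16, 3 and 21.

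**Figure D5:**
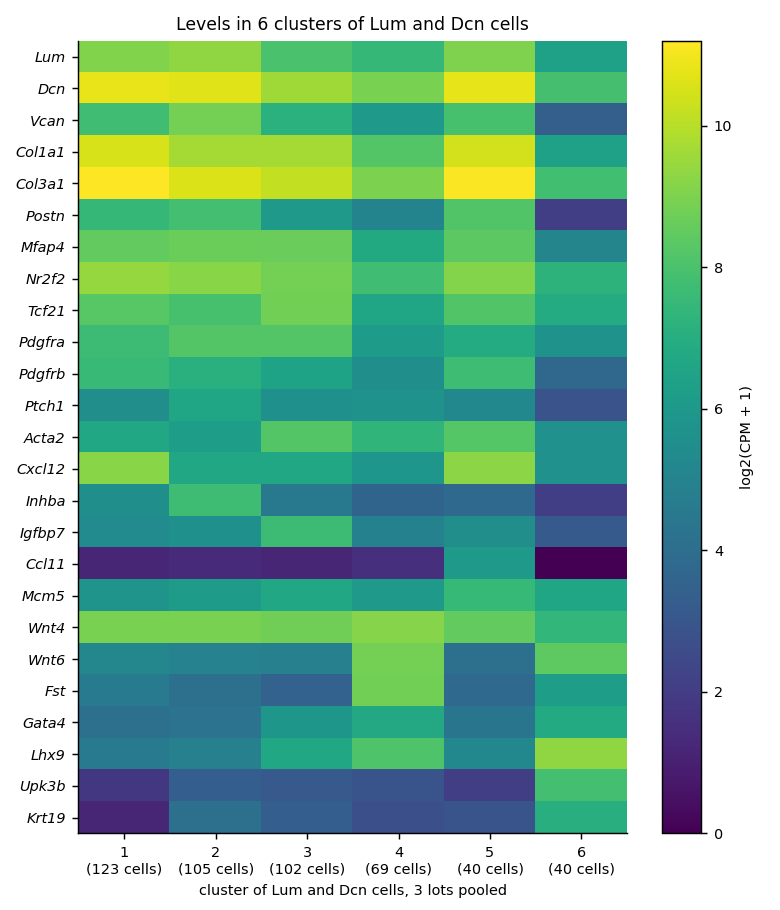
Level (colour, log2 of CPM plus 1) of 25 genes (vertical axis) in the 6 clusters of Lum and Dcn cells (horizontal axis), with the 3 lots pooled. Clusters 4 (69 cells) and 6 (40 cells) are low in Col1a1 and Postn, and they hold the highest levels of Fst (cluster 4) and of Upk3b and Krt19 (cluster 6).

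Between lots, the genes farthest apart in the members included stress and immediate early genes. Lot 30 stood out with the heat shock gene Hspa1a at 44.8, 45.0 and 289 CPM in lots 26, 29 and 30 and the stress factor Atf3 at 64.5, 106 and 581 CPM. Lot 30 was also the highest in all other cells, at 67.5, 64.5 and 400 CPM for Hspa1a and 67.6, 143 and 775 CPM for Atf3. Lot 26 was lowest for Egr2 (6.39, 28.6 and 36.9 CPM) and Nr4a1 (20.9, 68.2 and 175 CPM), as it was in all other cells (8.87, 25.02 and 38.4 CPM for Egr2 and 19.8, 40.9 and 127 CPM for Nr4a1). Serpini1 was lowest in lot 29 both in the members (30.2, 5.45 and 33.5 CPM) and in all other cells (59.3, 39.3 and 57.3 CPM). In the members so was the epithelial gene Myl7 (32.5, 8.18 and 42.0 CPM), while Myl7 in all other cells was highest in lot 29 (46.7, 70.9 and 55.8 CPM). The lot whose members held fewest cells of the Upk3b cluster was also lot 29. With 1 value a lot these differences have no test.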

How the data were processed

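UMI counts of 3 lots were used as deposited by the authors, who per the paper's methods and the submitters' processing notes extracted barcodes with UMI-tools, ran STAR 2.7 against GRCm38, restricted the reads to unique alignments and assigned them to genes with featureCounts 2.0.1, with no normalization. The annotation release and strand setting are not given in the sources used here. The tables list 18738 genes, 17460 of them in all 3. Cells with 200 to 9000 genes and at most 10% mitochondrial UMIs were kept.

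UMIs were summed per population and lot. The sums were tested with edgeR 4.0.16 in R 4.3.3 (TMM, filterByExpr, two-sided quasi-likelihood test, p-values adjusted by Benjamini-Hochberg across every tested gene, threshold 0.05), and the SE was derived from the F statistic. Genes that chose a population were left out of the counts of calls, and the populations share no cell. On simulated data for the comparison with all other cells (14594 genes), 195 of 200 changed genes were recovered and 3.47% of calls were false. Recovery was summarized by size of change and not by level. These rates therefore do not show what is recovered at the low levels that the leading higher genes have in the other cells. Whether the rates hold for sums that pair within a lot was not tested. Scrublet (scanpy 1.11.5) marked doublets within each lot at an assumed rate of 8%, and members were clustered on 1500 variable genes and 15 principal components at resolution 0.6.

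Populations of the same lot were drawn from the same pool and pair by construction. Their deviations correlated with a median r of 0.505 (0.291 to 0.857) over 18 pairs of sums and 4722 genes. A fit with the lot as a block was among the alternatives, as was DESeq2 1.42.0. The labels do not say how the lots were separated in time or handling, so the results reach no further than these 3 pools. The main fit left out the pairing and shared information on spread across genes. Its p-values are therefore no direct measure of the spread of 1 gene between these pools. The members and gene lists were chosen with earlier results of these data known. Named are Vcan, Col1a1, Nr2f2, Tcf21, the leading genes past the threshold with at least 20 CPM (12 higher and 8 lower against all other cells, 8 and 6 for each like population), the 4 highest members of each list, members past a 4-fold difference, and per lot the 3 genes farthest from the other lots. Any other gene was named with its value in view. Some genes that this rule names are not reported here.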

Additional observations from a re-analysis of the deposited data

How the results depend on the processing

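Against all other kept cells, the 12 leading higher genes were called in the same direction under each alternative tried (other normalization, no filter on low counts, DESeq2, the lot as a block, each lot left out, 2 UMIs of Lum and of Dcn required, doublets removed, cells with Y-linked UMIs removed, thinning to 4000 UMIs, the rule read from a random 50% of the UMIs, and other cells limited to those outside the cell cycle or to those with Tcf21 or Nr2f2). Counts of calls changed when a lot was left out and with the lot as a block. With each lot left out in turn, the higher and lower counts ran from 871 to 1013 and from 805 to 1104 against all other cells, from 33 to 70 and from 106 to 143 against Foxd1 and Dkk2 cells, from 158 to 271 and from 54 to 116 against Tcf21 and Nr2f2 cells lacking Lum or Dcn, and from 333 to 540 and from 586 to 739 against the cycling ones. With the lot as a replicate block, the lower count against all other cells was 2519, and the higher and lower counts against the like populations, in the same order, were 440 and 464, 836 and 851, and 1647 and 1703. Against Foxd1 and Dkk2 cells, doublet removal gave 188 higher, thinning 59 higher and 97 lower, the rule read from 50% of the UMIs 34 and 89, and the stricter rule 131 lower. The stricter rule gave 640 higher and 465 lower against Tcf21 and Nr2f2 cells lacking Lum or Dcn. Limiting the other cells to those with Tcf21 or Nr2f2 gave 928 lower. The fit with the lot as a block used the same sums, while most of the other alternatives used fewer lots, cells or UMIs by construction. The cause of the changed counts was not tested. The share of members was 0.877% with 2 UMIs of each gene and 3.08% without the cell-cycle criterion.

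Limiting the other cells to those outside the cell cycle turned the sign of 20 named genes, of which Smc4 and Cdk1 passed the threshold as higher there (log2 fold change in parentheses): Hmmr (0.19), Wnt4 (-0.18), Tyms (0.075), Smc4 (0.53), Birc5 (0.25), Cdk1 (0.56), Cenpa (0.061), Tpx2 (0.41), Nusap1 (0.088), Cenpf (0.58), Cenpe (0.045), Bub1 (0.87), Kif11 (0.63), Plk1 (0.63), Ccnb2 (0.31), Ccna2 (0.19), Tacc3 (0.48), Ckap2 (0.19), Anln (0.10) and Mael (0.13). Against Foxd1 and Dkk2 cells Lhx9 became -0.12 under the stricter rule. Of 217 genes named against all other cells, 217 kept their call or lack of one with other size factors, 186 to 202 with 1 lot left out, 207 with doublets removed, 182 after thinning and 160 with other cells outside the cell cycle (28 calls lost and 20 reversed in sign). The lot as a block ended no call among the named genes and added 20 against all other cells and 19, 21 and 24 against the like populations. Its adjusted p for Hba-x was 2.87e-144 (edgeR quasi-likelihood test), too small to be read as a measure of the spread between 3 lots, so its counts are given beside the others and not in their place. Lot 29, with 733332 member UMIs, limits what low genes can show.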
